A study of Homo sapiens with 12 samples.

Results

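The 10 genes described here encode the autophagy receptor p62 (SQSTM1), 2 members of the ATG8 family (MAP1LC3B and GABARAPL1), the kinase ULK1, the lipid kinase subunit Beclin 1 (BECN1), the phosphoinositide effector WIPI1, the conjugation factors ATG5, ATG7 and ATG12, and the transcription factor TFEB. They were matched by gene symbol, a rule that uses no measured value, and all 10 were found among the 34227 genes listed for SCC15 or SCC25, 2 established cell lines of head and neck squamous cell carcinoma (HNSCC). Cells of each line, given as wild type (WT) and oral squamous in the labels, were treated for 24 h with squamocin or with its solvent DMSO, with 3 RNA-seq libraries in each of the 4 groups. In the labels the agent is ACGs, an abbreviation of annonaceous acetogenins, and the study's text gives it as squamocin, a compound of that class. A cell line holds no stroma or immune cells of the tumour it came from, and nothing in the labels says that the 3 libraries of a group came from separate cultures, so that the p-values measure only the spread between these libraries.

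Autophagy delivers cytoplasmic material to the lysosome inside a double-membraned vesicle, the autophagosome. The ULK1 kinase complex starts it, the Beclin 1-VPS34 lipid kinase marks the growing membrane with phosphatidylinositol 3-phosphate that WIPI proteins bind, and a pair of ubiquitin-like reactions in which ATG7 is the activating enzyme join ATG12 to ATG5 and ATG8 proteins to lipid. Receptors such as p62 link ubiquitinated cargo to the ATG8 proteins and are themselves degraded in the lysosome, so that an mRNA level says nothing of protein turnover or of flux through the pathway. TFEB is a transcription factor of autophagy and lysosome genes that is controlled largely through its phosphorylation and its entry into the nucleus.

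The promoters of the adaptor and of the ATG8 members are shown. These 3 genes are among the 7 members that rose in both lines. RefSeq promoter windows (GRCh38.p14, 250 bases before to 50 after a start site, 300 bases in all) were matched for all 10 members, in 15 windows. They were searched on both strands for the E-box core CACGTG, the longer CLEAR-like element TCACGTGA that contains it, the C/EBP-ATF element TGATGNAA and the antioxidant element TGACNNNGC. Over all 35116 promoters, 7.26% held the first, 0.98% the second, 3.62% the third and 13.3% the fourth. Only 1 match was found among the members, an antioxidant element on the plus strand of MAP1LC3B that begins 46 bases before the start site, and it is in capitals in the sequence. The 250 bases before the start are given for MAP1LC3B (chr16:87392086-87392335), for the most downstream of the 3 RefSeq start sites of SQSTM1 (chr5:179820655-179820904) and for GABARAPL1 (chr12:10212627-10212876), all on the plus strand.
MAP1LC3B: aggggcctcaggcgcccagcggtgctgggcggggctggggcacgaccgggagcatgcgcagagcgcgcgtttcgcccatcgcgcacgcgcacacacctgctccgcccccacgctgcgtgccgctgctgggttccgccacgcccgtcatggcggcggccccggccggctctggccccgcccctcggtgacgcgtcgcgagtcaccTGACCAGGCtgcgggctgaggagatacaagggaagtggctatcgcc
SQSTM1: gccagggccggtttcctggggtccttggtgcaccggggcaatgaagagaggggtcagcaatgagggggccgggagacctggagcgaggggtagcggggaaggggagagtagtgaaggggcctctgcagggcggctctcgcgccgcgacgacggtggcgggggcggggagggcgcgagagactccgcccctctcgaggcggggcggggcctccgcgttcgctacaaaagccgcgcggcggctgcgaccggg
GABARAPL1: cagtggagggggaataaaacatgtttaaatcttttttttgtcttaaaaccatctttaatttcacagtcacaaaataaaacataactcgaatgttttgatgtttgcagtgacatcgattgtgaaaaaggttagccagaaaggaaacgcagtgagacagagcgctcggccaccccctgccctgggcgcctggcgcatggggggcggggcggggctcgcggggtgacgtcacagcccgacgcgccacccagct
A match is a description of these letters, and the absence of one says only that the letters do not stand in these windows.

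Between 16665563 and 22748845 reads per library fell on genes. Values are normalized counts, that is, reads divided by 1 size factor per library, set by the authors for each line on its own, and changes are log2 fold changes of squamocin against DMSO on log2(normalized count + 1), tested by limma with Benjamini-Hochberg adjustment over 15902 genes in SCC15 and 16539 in SCC25 with a mean of at least 10, which all 10 members reached in both. After this scaling, the normalized counts of all genes summed to 20467856 to 24626253 in the squamocin libraries of SCC15 against 15466464 to 15535484 with DMSO, and to 20917114 to 21265099 against 18245022 to 18333723 in SCC25. Setting all libraries of a line to the same total moves the median log2 change of all genes from 0.01 to -0.48 in SCC15 and from -0.02 to -0.22 in SCC25, and values under this second scaling are given beside many of the results. Squamocin replicate 3 of SCC15 stood apart: its chi-square per degree of freedom over genes was 72.8 and 82.9 against the other squamocin libraries, whereas the other 10 replicate pairs gave 1.67 to 10.1. Of 6 squamous epithelial markers (KRT5, KRT14, KRT6A, TP63, SFN and DSP), 6 had a mean of at least 10 in SCC25 and 5 in SCC15, where KRT5 had a mean of 7.46. Their summed normalized count was 5794 to 6018 with DMSO and 6880 to 9694 with squamocin in SCC15, and 21129 to 21265 and 31269 to 32586 in SCC25. Markers of immune, endothelial and stromal cells (8 genes) summed to 773 to 823 with DMSO and 473 to 492 with squamocin in SCC15, with PTPRC, CD68, VWF and PDGFRB under a mean of 10. In SCC25 they summed to 848 to 947 and 1084 to 1255, with PTPRC not listed and CD68 and COL3A1 under 10, and their part in the changes was not tested. In bulk RNA, fewer cells of a kind and less RNA per cell cannot be told apart.

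Most of the 10 mRNAs were higher after squamocin in both lines. In SCC15, 9 members rose, 0 fell and 1 (TFEB) did not pass the threshold of an adjusted p of 0.05. Of all genes tested in SCC15, 30.9% rose and 30.0% fell. In SCC25, 7 members rose, 2 (BECN1 and ATG7) fell and TFEB again did not pass, where 38.3% of all genes rose and 38.5% fell. The median log2 change of the members was 0.74 in SCC15 and 0.85 in SCC25. With equal library totals it was 0.24 and 0.64, where SCC15 had 5 members higher and 1 lower and SCC25 had 7 and 3. Under that scaling 2357 of the 15902 genes tested in SCC15 were higher and 8032 lower, and in SCC25 5032 and 7839 of 16539. The squamocin libraries lay all above or all below the DMSO libraries for 9 members in each line, as they did for 70.6% of all genes in SCC15 and 79.0% in SCC25. With 3 libraries against 3 an exact permutation test of a single gene cannot go below p = 0.1, two-sided, so calls rest on the fit across all genes. Of the members, 7 rose in both lines (SQSTM1, MAP1LC3B, GABARAPL1, ULK1, WIPI1, ATG5 and ATG12), 0 fell in both, and 2 (BECN1 and ATG7) had opposite calls, beside 22.1%, 18.6% and 10.1% of the 14454 genes tested in both.

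**Figure D1:**
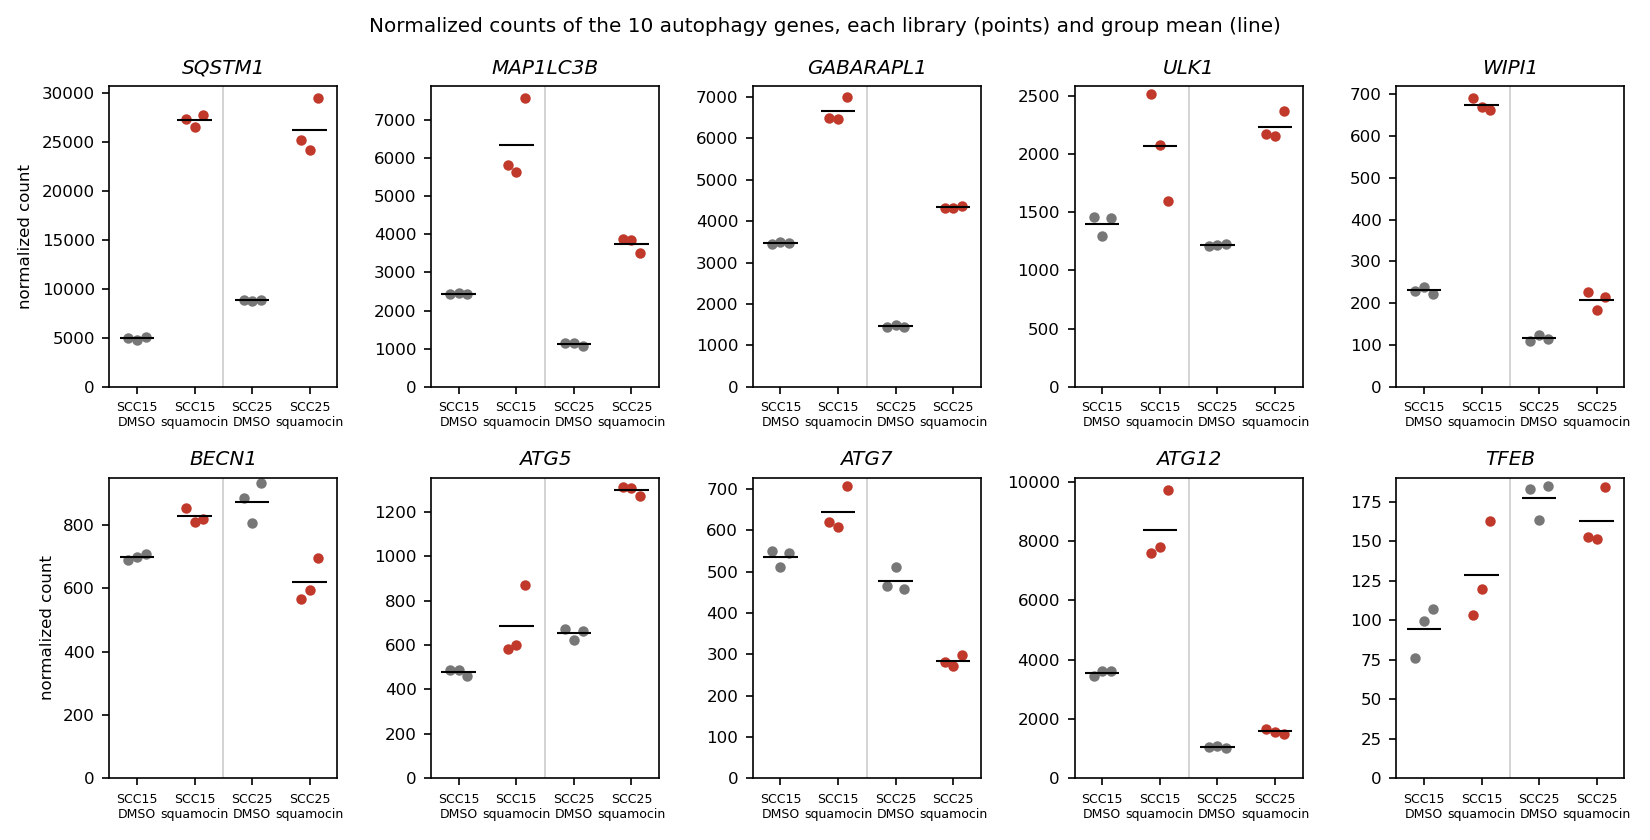
Normalized counts (vertical axis, linear, from 0) of the 10 members in each of the 12 libraries, with grey points for DMSO, red points for squamocin and a black line for the mean of 3 libraries. The lines were scaled separately. SQSTM1, MAP1LC3B, GABARAPL1, ULK1, WIPI1, ATG5 and ATG12 were higher in every squamocin library than in any DMSO library of the same line. BECN1 and ATG7 were higher in SCC15 and lower in SCC25.

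SQSTM1 (ENSG00000161011, chr5:179806398-179838078, plus strand) encodes p62, the receptor that carries ubiquitinated cargo to the autophagosome, and it was the most induced member in SCC15. Its normalized counts there were 4986, 4793 and 5048 in the DMSO libraries and 27311, 26563 and 27747 in the squamocin libraries. The squamocin values lay close together and far above every DMSO value. The mean went from 4943 ± 133 to 27207 ± 599 (SD, n = 3), a log2 change of 2.46 (SE 0.09, adjusted p = 5.5e-06 by limma). In SCC25 the counts were 8884, 8804 and 8884 with DMSO and 25149, 24163 and 29472 with squamocin, with replicate 3 the highest. From a DMSO level of 8857 ± 45.8, SCC25 cells reached 26262 ± 2824 (SD, n = 3), a log2 change of 1.56 (SE 0.06, adjusted p = 1.8e-10). The response was larger in SCC15 by 0.90 log2 units (95% interval 0.65 to 1.15, adjusted p = 3.56e-05). The opposite-strand neighbour MRNIP covers 21.0% of the exonic bases of SQSTM1 and rose as well (log2 1.63 and 1.03), with a mean count 8.19% of that of SQSTM1 in SCC15 and 6.74% in SCC25. MGAT4B, also on the other strand, rose too (log2 0.68 and 0.42), with a mean 26.8% and 22.1% of that of SQSTM1. Whether reads were counted by strand is not given in the sources used here, so for SQSTM1 and the other members with such neighbours the reads of both genes over shared bases cannot be told apart, and the neighbours' part in the changes was not tested.

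MAP1LC3B (ENSG00000140941, chr16:87383995-87404779, plus strand) encodes LC3B, the ATG8 protein most used to mark autophagosomes. In SCC15 the DMSO libraries held 2423, 2455 and 2442 normalized counts and the squamocin libraries 5809, 5629 and 7567. Squamocin replicate 3, the library that stood apart, was the highest. The mean rose from 2440 ± 16.2 to 6335 ± 1071 (SD, n = 3), a log2 change of 1.36 (SE 0.12, adjusted p = 1.24e-04), which was 1.23 without that library and 0.87 with equal library totals. In SCC25 the values were 1161, 1143 and 1063 with DMSO and 3885, 3849 and 3520 with squamocin, and the groups lay far apart. Here the log2 change was 1.74 (SE 0.05, adjusted p = 2.51e-11), from 1123 ± 52.3 to 3752 ± 201 (SD, n = 3), and no member changed more in this line. Of the 75-base stretches of MAP1LC3B transcripts, 6.38% also occur in MAP1LC3B2, a near copy, so a small part of its reads could be split between them.

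GABARAPL1 (ENSG00000139112, chr12:10212458-10223130, plus strand) encodes an ATG8 protein of the GABARAP branch, which acts in autophagosome closure and fusion. The DMSO libraries of SCC15 gave 3447, 3499 and 3461 and the squamocin libraries 6487, 6465 and 6983. All squamocin values lay above all DMSO values with little spread in either group. The mean rose from 3469 ± 26.8 to 6645 ± 293 (SD, n = 3), a log2 change of 0.94 (SE 0.08, adjusted p = 1.0e-04), and 0.44 with equal library totals (adjusted p = 2.14e-03). In SCC25 the counts went from 1455, 1482 and 1439 to 4318, 4311 and 4366, with little spread and no overlap. That is a log2 change of 1.57 (SE 0.04, adjusted p = 4.92e-12), larger than in SCC15 by 0.63 log2 units (95% interval of SCC15 minus SCC25 -0.81 to -0.46, adjusted p = 3.91e-05).

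Every other ATG8 gene that could be tested rose too, with 4 of 4 in SCC15 and 3 of 3 in SCC25, although GABARAP in SCC25 did not pass with TMM factors or equal library totals. Among all genes tested, 30.9% rose in SCC15 and 38.3% in SCC25. GABARAPL2 went from 1500 ± 69.0 to 3184 ± 911 in SCC15 and from 1138 ± 72.2 to 2786 ± 172 in SCC25 (SD, n = 3), log2 changes of 1.05 and 1.29. MAP1LC3B2 rose by 1.42 and 0.88, with 17.19% of its 75-base stretches shared with MAP1LC3B. GABARAP was listed at low counts, from 32.3 to 86.7 in SCC15 and from 49.98 to 73.9 in SCC25 (log2 1.41 and 0.53, adjusted p = 0.0479 in the latter). In SCC15, MAP1LC3A rose from 459 ± 11.5 to 969 ± 352 (log2 1.02, adjusted p = 5.87e-03), and its means of 4.56 and 2.38 in SCC25 were too low to test. MAP1LC3C was not listed for SCC15 and had means of 0.60 and 4.82 in SCC25. With the members counted, the median log2 change of the ATG8 family was 1.21 over 6 genes in SCC15 and 1.29 over 5 genes in SCC25, against 0.01 and -0.02 for all genes tested, and it was 0.71 and 1.08 with equal library totals.

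ULK1 (ENSG00000177169, chr12:131894651-131923167, plus strand) encodes the kinase that starts autophagosome formation. In SCC15 the values were 1462, 1300 and 1448 with DMSO and 2520, 2080 and 1598 with squamocin. The squamocin libraries spread widely, and replicate 3 lay not far above the highest DMSO library. The log2 change of 0.53 (SE 0.16, adjusted p = 0.0229 by limma) passed the threshold, but it was 0.04 (adjusted p = 0.889) with equal library totals. It also missed the threshold when any library other than squamocin replicate 3 was left out (log2 0.38 to 0.71 over the 6 omissions, highest adjusted p 0.0847). In SCC25 the rise was narrow and plain, from 1213, 1218 and 1224 to 2175, 2158 and 2367, a log2 change of 0.87 (SE 0.05, adjusted p = 5.85e-09). Of the 4 other genes of the ULK complex, ATG13 (0.61) and ATG101 (1.08) rose and ULK2 (-0.38) and RB1CC1, the scaffold FIP200 (-0.70), fell in SCC15. In SCC25, RB1CC1 rose (0.28) and ULK2 fell (-0.33), with 0.03 for ATG13 and -0.21 for ATG101, which did not pass. With equal library totals ATG13 (-0.17) and ATG101 (-0.41) passed as falls in SCC25 and RB1CC1 did not pass there (0.07), and ATG13 no longer passed in SCC15 (0.12).

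BECN1 (ENSG00000126581, chr17:42810134-42833350, minus strand), the regulatory subunit of the VPS34 lipid kinase, had opposite calls in the 2 lines. In SCC15 it went from 690.2, 698.9 and 709.7 with DMSO to 853.2, 810.5 and 820.0 with squamocin, a small shift without overlap. The log2 change of 0.24 (SE 0.08, adjusted p = 0.0288) became -0.26 (adjusted p = 0.0641) with equal library totals, and the call was lost when any library other than squamocin replicate 3 was left out (log2 0.22 to 0.26, highest adjusted p 0.107). In SCC25 the DMSO libraries held 885.7, 805.1 and 932.1 and the squamocin libraries 566.9, 594.8 and 695.0. All 3 lay under all DMSO values, a log2 change of -0.50 (SE 0.08, adjusted p = 1.17e-04), and -0.71 with equal totals. The lines differed by 0.74 log2 units (95% interval 0.48 to 1.01, adjusted p = 2.35e-04), and by 0.45 with equal totals, which passed as well. Exons of other genes cover 17.1% of the exonic bases of BECN1, with 12.4% covered by CNTD1. The mean count of CNTD1 was 4.75% of that of BECN1 in SCC15 and 1.92% in SCC25, and its change passed in neither line (log2 -0.50 and 0.56). The overlapping PSME3, with a mean count 227% of that of BECN1 in SCC15 and 270% in SCC25, fell in both lines (log2 -0.55 and -0.40). The share of the exonic bases covered by PSME3 alone is not given here. Among the 7 other genes of the VPS34 complexes, NRBF2 rose and PIK3R4 fell in SCC15, and in SCC25 NRBF2, UVRAG and RUBCN rose and PIK3C3, PIK3R4 and ATG14 fell. Among all genes tested, 30.9% rose and 30.0% fell in SCC15, and 38.3% and 38.5% in SCC25. With equal totals 0 of these 7 were higher and 4 lower in SCC15, where NRBF2 was at 0.13, and 2 were higher and 4 lower in SCC25, where RUBCN was at 0.01. All genes then gave 2357 higher and 8032 lower of 15902 in SCC15, and 5032 and 7839 of 16539 in SCC25.

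WIPI1 (ENSG00000070540, chr17:68420948-68457513, minus strand) binds phosphatidylinositol 3-phosphate on the growing membrane. Its counts in SCC15 were 230.3, 238.8 and 222.6 with DMSO and 690.9, 670.2 and 663.2 with squamocin, so that every squamocin library was far above every DMSO library. This was a log2 change of 1.55 (SE 0.09, adjusted p = 2.1e-05), from 231 ± 8.09 to 675 ± 14.4 (SD, n = 3), second among the members in this line. In SCC25 the counts went from 110.4, 125.0 and 114.2 to 226.2, 183.0 and 215.4, without overlap. The log2 change was 0.83 (SE 0.12, adjusted p = 3.7e-05), smaller than in SCC15 by 0.72 (95% interval 0.41 to 1.03, adjusted p = 9.86e-04). ARSG, on the other strand, covers 24.4% of the exonic bases of WIPI1 and did not rise (log2 -0.23, adjusted p = 0.353, in SCC15 and -0.93 in SCC25), with a mean 14.7% and 47.8% of that of WIPI1. The 10 other genes of this step were mixed, with 4 higher and 1 lower (ATG2B) in SCC15 and 5 higher and 4 lower (ATG2A, ATG9A, ATG9B and VMP1) in SCC25. Among all genes tested, 30.9% rose and 30.0% fell in SCC15, and 38.3% and 38.5% in SCC25. With equal totals 3 of the 10 were higher and 5 lower in each line. All genes then gave 2357 higher and 8032 lower of 15902 in SCC15, and 5032 and 7839 of 16539 in SCC25.

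Of the conjugation factors, ATG12 (ENSG00000145782, chr5:115828200-115841858, minus strand), the ubiquitin-like protein itself, changed most in SCC15. The SCC15 libraries held 3457, 3629 and 3621 with DMSO and 7599, 7791 and 9714 with squamocin, with replicate 3 again the highest. The log2 change was 1.22 (SE 0.11, adjusted p = 1.36e-04), from 3569 ± 97.2 to 8368 ± 1170 (SD, n = 3), and 0.72 with equal library totals. In SCC25 the rise was smaller, from 1069, 1103 and 1037 to 1674, 1568 and 1505, a log2 change of 0.56 (SE 0.05, adjusted p = 9.0e-07), and 0.36 with equal totals. The lines differed by 0.66 log2 units (95% interval 0.39 to 0.93, adjusted p = 7.45e-04). The neighbour AP3S1 on the other strand, with a mean count 171% of that of ATG12 in SCC15 and 144% in SCC25, rose by 1.25 and 1.26, and it covers 2.09% of the exonic bases of ATG12.

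ATG5 (ENSG00000057663, chr6:106045423-106325791, minus strand), the acceptor of ATG12, had its larger response in SCC25. It went from 672.1, 624.3 and 663.0 to 1312, 1309 and 1270 in SCC25, a log2 change of 0.99 (SE 0.05, adjusted p = 4.24e-09) with no overlap and little spread. In SCC15 the DMSO libraries held 488.0, 487.8 and 462.7 and the squamocin libraries 580.8, 600.7 and 871.0, where the third stood far above the others. The log2 change of 0.49 (SE 0.16, adjusted p = 0.0303) was 0.30 without squamocin replicate 3, missed the threshold without any of the 3 DMSO libraries (highest adjusted p 0.0950) and was -0.01 with equal totals.

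ATG7 (ENSG00000197548, chr3:11272309-11557665, plus strand), the E1-like activating enzyme of both reactions, was the member on which the lines differed most, by 1.02 log2 units (95% interval 0.75 to 1.28, adjusted p = 2.05e-05). In SCC25 it fell from 464.2, 511.8 and 456.8 to 282.2, 270.4 and 298.6. All squamocin libraries were well below all DMSO libraries, with a log2 change of -0.75 (SE 0.08, adjusted p = 2.28e-06). In SCC15 it was at 548.5, 511.5 and 544.7 with DMSO and 620.2, 608.7 and 705.5 with squamocin. The groups did not overlap, and the log2 change of 0.27 (SE 0.10) had an adjusted p of 0.0422 by limma. This call does not hold across scalings, since with equal library totals the change was -0.23 and passed as a fall (adjusted p = 0.0437), and it was lost when any library other than squamocin replicate 3 was left out (log2 0.20 to 0.31, highest adjusted p 0.149). VGLL4 on the other strand covers 18.1% of the exonic bases of ATG7, with a mean count 92.4% of that of ATG7 in SCC15 and 119% in SCC25, and it had log2 changes of 0.14 in SCC15, which did not pass, and -0.51 in SCC25. Of the 8 other conjugation and ATG4 protease genes, 4 rose and 0 fell in SCC15 (ATG3, ATG16L2, ATG4B and ATG4D), and 7 rose and 0 fell in SCC25. Among all genes tested, 30.9% rose and 30.0% fell in SCC15, and 38.3% and 38.5% in SCC25. With equal library totals 0 of these 8 were higher and 4 lower in SCC15, and in SCC25 3 were higher and 0 lower. All genes then gave 2357 higher and 8032 lower of 15902 in SCC15, and 5032 and 7839 of 16539 in SCC25.

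TFEB (ENSG00000112561, chr6:41683978-41736259, minus strand) was the least abundant member per kilobase of exon and passed the threshold in neither line under the authors' scaling. The SCC15 values were 75.93, 99.62 and 107.4 with DMSO and 103.2, 119.7 and 163.0 with squamocin, and the groups overlapped. The log2 change was 0.43 (95% interval -0.07 to 0.93, adjusted p = 0.116 by limma). In SCC25 the values were 182.9, 163.7 and 185.0 with DMSO and 152.5, 151.8 and 184.3 with squamocin, overlapping again. Here the log2 change was -0.12 (95% interval -0.38 to 0.13, adjusted p = 0.343), and -0.33 with equal totals, which passed as a fall (adjusted p = 0.0215). Its relatives differed: TFE3 rose in both lines (0.89 and 0.54), whereas MITF fell from 302 ± 11.4 to 236 ± 10.3 in SCC15 (-0.36) and rose from 43.1 ± 8.91 to 110 ± 18.3 in SCC25 (1.34).

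**Figure D2:**
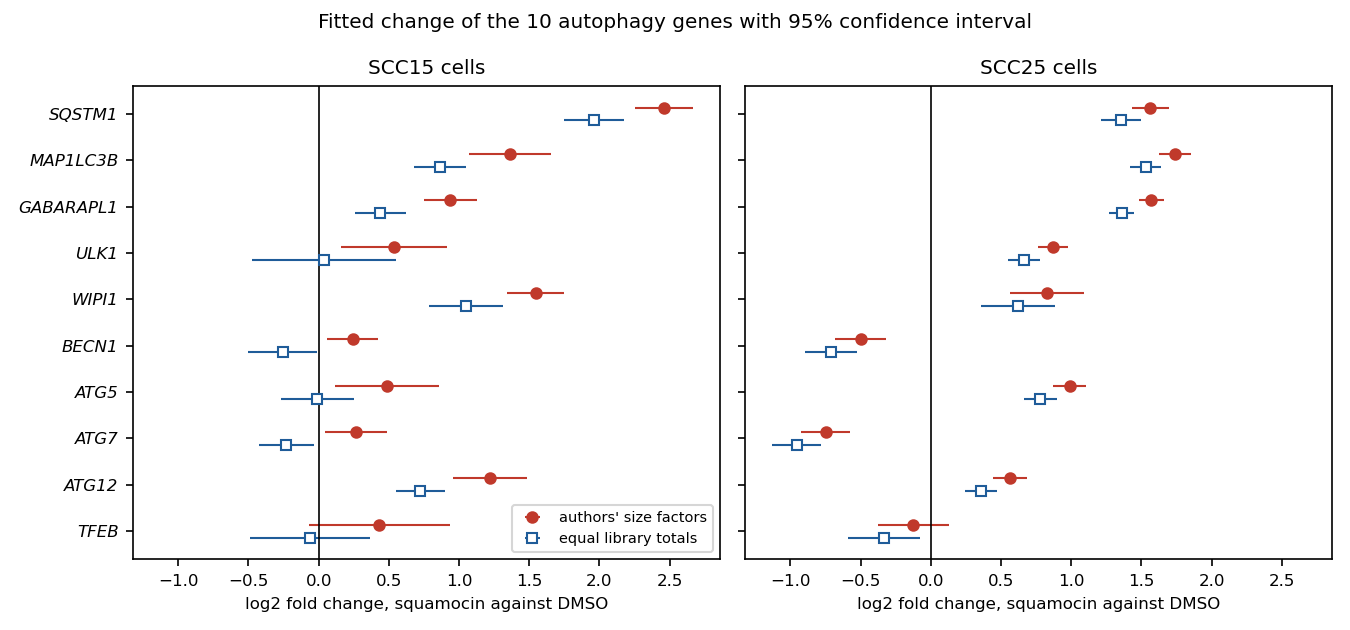
Fitted log2 fold change of each member (horizontal axis) with its 95% confidence interval, in SCC15 (left) and SCC25 (right), with the authors' size factors (red circles) and with equal library totals (blue squares). SQSTM1, MAP1LC3B, GABARAPL1, WIPI1 and ATG12 stay to the right of 0 in both panels, and with equal totals ULK1, ATG5, BECN1, ATG7 and TFEB lie at 0.04 or below in SCC15.

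Tested as a difference, the response to squamocin was not the same in the 2 lines for 8 of the 10 members, where 52.2% of the 14454 genes tested in both differed. The response in SCC15 was the higher for 5 members (SQSTM1, WIPI1, BECN1, ATG7 and ATG12) and that in SCC25 for 3 (MAP1LC3B, GABARAPL1 and ATG5). All 8 differences also passed with equal library totals, with the same signs. The differences of MAP1LC3B (-0.38, adjusted p = 0.0377) and ATG5 (-0.50, adjusted p = 0.0278) depended on the libraries. They missed the threshold in 10 and 7 of the 12 fits that each left out a library, where MAP1LC3B ranged from -0.51 to -0.30 (highest adjusted p 0.0924) and ATG5 from -0.69 to -0.40 (highest adjusted p 0.0656). That of MAP1LC3B passed only without squamocin replicate 3 of SCC15 or of SCC25, and that of ATG5 without either of these, DMSO replicate 3 of SCC15 or DMSO replicate 1 or 3 of SCC25. ULK1 differed by -0.34 (95% interval -0.72 to 0.05, adjusted p = 0.129) and TFEB by 0.56 (0.01 to 1.10, adjusted p = 0.0807), and neither interval allows the responses to be called alike. With equal library totals the ULK1 difference was -0.63 and passed (adjusted p = 0.0422), and that of TFEB did not. Both came past the threshold without squamocin replicate 1 of SCC15, with adjusted p = 0.00978 for ULK1 and 0.0286 for TFEB.

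Levels of different genes were compared per kilobase of exon, as normalized counts per kb. The length took in all annotated exons of a gene, such as 3403 bases for WIPI1 and 6414 for BECN1, and the order rests on it. SQSTM1 was the most abundant member in 3 of the 4 groups, at 1175 per kb in SCC25 with DMSO and 3611 and 3485 per kb in SCC15 and SCC25 with squamocin. In DMSO-treated SCC15, GABARAPL1 led at 856 per kb, before SQSTM1 at 656 per kb. The ATG8 genes GABARAPL1 and MAP1LC3B came next in the other 3 groups, and TFEB was last in all 4, at 14.03 to 26.4 per kb. With squamocin, WIPI1 moved up in SCC15, from 67.8 per kb and below BECN1 (109 per kb) and ATG5 (84.8 per kb) to 198 per kb and above both. In normalized counts not divided by length, WIPI1 (675) stayed below BECN1 (828) and ATG5 (684) there. In SCC25, BECN1 moved down from 136 per kb, above ATG12 and ATG5, to 96.5 per kb, below both, and ATG5 moved up from 116 to 229 per kb and above both. Neighbours in the order did not overlap in their libraries except BECN1 and ATG5 in squamocin-treated SCC15 and ATG12 and ATG5 in DMSO-treated SCC25.

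Around the members, 112 other genes of autophagy, of its control by mTORC1 and AMPK and of the lysosome were followed. In SCC15, 49 of 111 tested rose and 21 fell, with a median log2 change of 0.22, and in SCC25, 53 of 109 rose and 41 fell, with a median of 0.13, against medians of 0.01 and -0.02 over all genes, of which 30.9% rose and 30.0% fell in SCC15 and 38.3% and 38.5% in SCC25. With equal library totals SCC15 had 26 higher and 49 lower and SCC25 had 37 and 52. All genes tested then gave 2357 higher and 8032 lower of 15902 in SCC15, and 5032 and 7839 of 16539 in SCC25. Of the 109 tested in both lines, 32 rose in both, 11 fell in both and 14 had opposite calls, beside 22.1%, 18.6% and 10.1% of all genes. Beyond the ATG8 family, those at least doubled on the fitted scale in both lines were RHEB, the GTPase that activates mTORC1 (1662 to 4009 in SCC15 and 1474 to 6379 in SCC25, log2 1.25 and 2.11), and NEU1, the lysosomal sialidase (899 to 2405 and 1394 to 3793, log2 1.41 and 1.44). With equal totals RHEB changed by 0.76 and 1.90 and NEU1 by 0.92 and 1.23, so neither was doubled in SCC15 under that scaling. Among the 16 adaptors other than SQSTM1, 7 rose and 5 fell in SCC15 and 8 rose and 5 fell in SCC25, and the mitophagy receptor BNIP3L was split, at 0.69 in SCC15, which did not pass with equal totals (0.20), and -0.15 in SCC25. With equal totals 3 of the 16 were higher and 8 lower in SCC15, and 5 and 7 in SCC25. Of the 13 fusion genes, 4 rose and 4 fell in SCC15 and 4 rose and 8 fell in SCC25, with VPS11 split at 0.37 and -0.97, and with equal totals 1 was higher and 7 lower in SCC15 and 4 and 9 in SCC25. Of the 19 genes of mTORC1, AMPK and Rag signalling, 8 rose and 5 fell in SCC15, and 11 of 18 tested rose and 5 fell in SCC25, with FNIP2 at -1.19 and 0.57 and PRKAA1, a catalytic subunit of AMPK, at -0.25 and 0.20. With equal totals SCC15 had 5 of them higher and 8 lower, SCC25 had 8 and 7, and PRKAA1 was at -0.01 in SCC25.

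**Figure D3:**
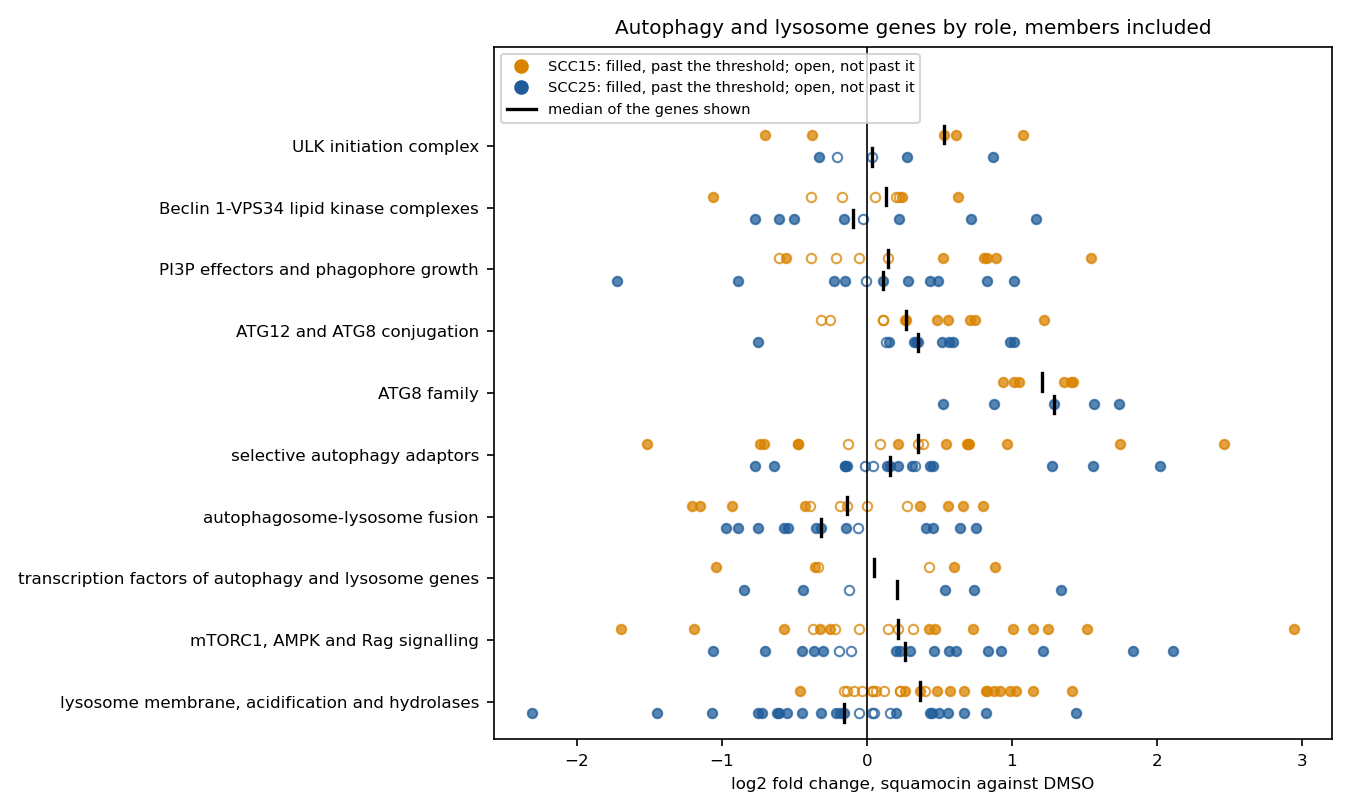
Log2 fold change of squamocin against DMSO (horizontal axis) of autophagy and lysosome genes in 10 groups by role, members included, in SCC15 (orange) and SCC25 (blue). Filled points passed an adjusted p of 0.05, open points did not, and black bars are medians. All tested ATG8 genes lie to the right of 0 in both lines, and the lysosome group is mostly to the right in SCC15 and spreads to both sides in SCC25.

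The lysosome group had more genes higher than lower in SCC15 and more lower than higher in SCC25 under the authors' scaling. Of its 25 genes, 13 rose and 1 fell in SCC15 and 8 rose and 13 fell in SCC25, with median log2 changes of 0.37 and -0.15, beside the shares of all genes given above (30.9% and 30.0% in SCC15, 38.3% and 38.5% in SCC25). With equal totals 8 were higher and 8 lower in SCC15, and in SCC25 there were 7 and 15. All genes then gave 2357 higher and 8032 lower of 15902 in SCC15, and 5032 and 7839 of 16539 in SCC25. Of the 14 genes with opposite calls, 7 were lysosomal (CTSA, CTSB, CTSD, PSAP, HEXA, GLB1 and SCARB2), and all 7 rose in SCC15 and fell in SCC25. The lysosome group made up 25 of the 109 genes tested in both lines. Opposite calls were found for 10.1% of all genes, a share that was not split by direction. The protease cathepsin B (CTSB) went from 6730 ± 154 to 11947 ± 1028 in SCC15 (log2 0.82) and from 20573 ± 427 to 4149 ± 144 in SCC25 (log2 -2.31), both SD with n = 3. For cathepsin D (CTSD) the log2 changes were 1.15 and -0.60, for cathepsin A (CTSA) 0.88 and -0.75, and for the saposin precursor PSAP 0.92 and -0.45. The CTSD values in squamocin-treated SCC15 spread widely, at 2992, 3465 and 5947, with the highest in replicate 3, the library that stood apart. The hexosaminidase subunit HEXA changed by 1.03 and -0.55, the beta-galactosidase GLB1 by 0.37 and -1.06, and the membrane protein SCARB2 by 0.27 and -0.15. GLB1 and SCARB2 changed sign in SCC15 with equal totals, to -0.13 and -0.23, as did VPS11 (-0.13), while the other 5 lysosomal genes stayed above 0 in SCC15 and all 7 stayed below 0 in SCC25. The difference between lines of SCARB2, 0.42, was 0.13 and did not pass with equal totals (adjusted p = 0.189). LAMP2, CTSL, TPP1 and NEU1 rose in both lines, but with equal totals TPP1 was at -0.02 in SCC15 and -0.01 in SCC25 and LAMP2 did not pass in SCC15 (0.17).

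**Figure D4:**
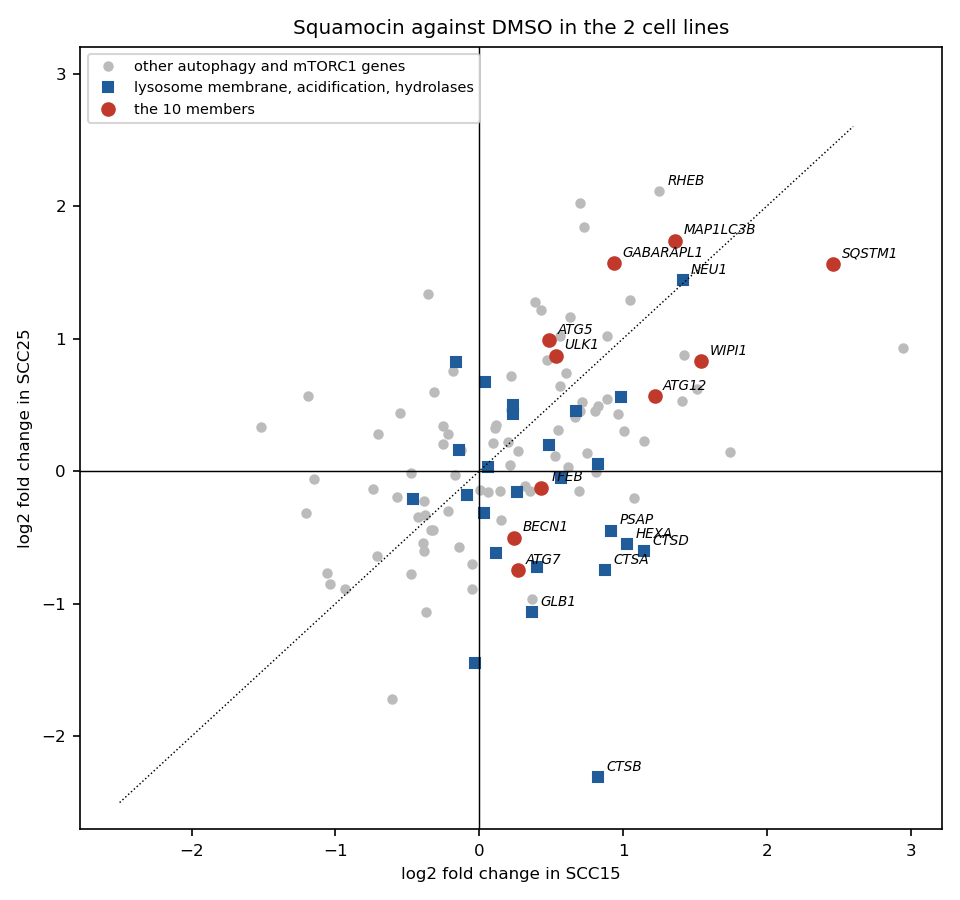
Log2 fold change in SCC15 (horizontal axis) against that in SCC25 (vertical axis) for the members (red), the lysosome genes (blue squares) and the other autophagy and mTORC1 genes (grey) tested in both lines, with a dotted line of equal change. BECN1 and ATG7 lie at lower right with the lysosomal genes CTSB, CTSA, CTSD, HEXA, GLB1 and PSAP, higher in SCC15 and lower in SCC25.

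The gene nearest to a member over all 12 libraries was sought among 9697 protein-coding genes with a mean of at least 100 in both tables, by the root mean square difference of log2 values after subtracting the DMSO mean of the line. SQSTM1 was closest to GADD45A, the DNA damage and stress gene, at 0.15 log2 units, and MAP1LC3B to SMCO4 at 0.09. WIPI1 was closest to NFKB2 at 0.11, ATG12 to TMBIM1 at 0.05 and ATG5 to JPT1 at 0.04. ULK1 was closest to CSNK2A1 (0.08), BECN1 to DDX24 (0.07), ATG7 to NCLN (0.05) and TFEB to POLR2H (0.12). The distance is a description of likeness over libraries that share their treatment, and no test was made of it.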

How the data were processed

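RNA-seq of SCC15 and SCC25 cells (3 libraries per group) was used. Per the labels, HISAT2 v2.0.5 (build GRCh38) and featureCounts v1.5.0-p3 were the authors' aligner and read counter. The deposited signal per gene is the read count divided by the authors by 1 size factor per library, within each line's table. The SCC25 headers call these values FPKM, but all values times 1 factor per library came out whole (100%, tolerance 0.01), so they are not. The strand setting of counting is not given in the sources used here, so reads over bases shared by genes of opposite strand could not be assigned. The deposited fold changes and p-values were not used.

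limma v3.58.1 (R v4.3.3, eBayes with trend, two-sided, Benjamini-Hochberg, threshold 0.05) was run on log2(normalized count + 1) for genes with a mean of at least 10. Differences between lines were contrasts of the 4 group means. edgeR v4.0.16 and DESeq2 v1.42.0 on the recovered reads were alternatives, with other pseudocounts, filters and scalings. Tests were tried first on simulated data with few changed genes and no library that stood apart, a setting unlike that of these libraries. Exonic lengths and overlaps came from GENCODE annotation of GRCh38, and coordinates of genes from the deposited tables.

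Named beside the members were all ATG8 genes, listed genes past the threshold in both lines with a log2 change of at least 1 and the same sign, listed genes with opposite calls, and the nearest gene of each member, except that the one for GABARAPL1 is not reported here. Other names were chosen after their values were seen. The members and lists were chosen with earlier results of these data known.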

Additional observations from a re-analysis of the deposited data

Results flagged for a closer look

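These results stand here because the response to squamocin, tested as a difference of log2 changes (SCC15 minus SCC25, limma across all genes tested in both lines), was not the same in the 2 cell lines. Among the members the difference was 0.90 for SQSTM1, 0.72 for WIPI1, 0.74 for BECN1, 1.02 for ATG7 and 0.66 for ATG12, and it was -0.38 for MAP1LC3B, -0.63 for GABARAPL1 and -0.50 for ATG5. BECN1 and ATG7 rose in SCC15 and fell in SCC25, although the rise in SCC15 depended on the scaling.

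The other genes had opposite calls. Those that rose in SCC15 and fell in SCC25 were CTSB (3.13), CTSD (1.75), CTSA (1.62), HEXA (1.58), GLB1 (1.43), PSAP (1.37), VPS11 (1.33), BNIP3L (0.84) and SCARB2 (0.42, but 0.13 and no longer past the threshold with equal library totals). Those that fell in SCC15 and rose in SCC25 were FNIP2 (-1.76), MITF (-1.69), ATG2B (-0.99), RB1CC1 (-0.98) and PRKAA1 (-0.45). Some of these opposite calls depended on the scaling. With equal totals GLB1 (-0.13), VPS11 (-0.13) and SCARB2 (-0.23) were below 0 in SCC15, and BNIP3L (0.20) did not pass there. RB1CC1 (0.07) and PRKAA1 (-0.006) did not pass in SCC25 under that scaling. Of all genes tested in both lines, 52.2% differed in the same test.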

How the results depend on the processing

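Under other pseudocounts, filters, scalings, edgeR, DESeq2 and the replicate block, SQSTM1, MAP1LC3B, GABARAPL1, WIPI1 and ATG12 kept their calls in both lines, as they did without any 1 library. Over these settings, 640 of the values for named genes kept their direction and side of the threshold, 22 lost the call, 6 gained it and 8 reversed. With edgeR and with DESeq2, 9 members rose in SCC15 and 7 rose and 2 fell in SCC25. Scaling mattered most. With equal library totals in SCC15, 5 members were higher and 1 lower and other pathway genes were 26 higher and 49 lower. Of all 15902 genes tested there, 2357 were then higher and 8032 lower. In SCC15 BECN1 (-0.26), ATG5 (-0.01), ATG7 (-0.23), TFEB (-0.061), GLB1 (-0.13), SCARB2 (-0.23) and VPS11 (-0.13) reversed, as did PRKAA1 (-0.006) in SCC25. The responses of the other pathway genes were then larger in SCC15 for 23 and in SCC25 for 43, against 35 and 24 as reported. Over all 14454 genes tested in both lines these counts were 2396 and 5452, against 3779 and 3761 as reported. With TMM factors ULK1, BECN1 and ATG7 lost their calls in SCC15, and with all genes above 0 BECN1 and ATG7 did. The cause was not tested.

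Leaving out 1 library gave 5 to 9 members higher in SCC15, with 5 without each DMSO library in turn, where 47.8% to 48.3% of all genes were called against 61.0% with all 6 libraries and 75.6% without squamocin replicate 3. It gave 13 (without DMSO replicate 2) to 29 (without squamocin replicate 3) other pathway genes lower in SCC15, 1 to 3 members with the larger response in SCC25, and a difference of -0.111 to 0.029 for NEU1, positive without squamocin replicate 1 of SCC15 (0.029) or squamocin replicate 3 of SCC25 (0.026). No shared deviation was seen between same-numbered libraries, whose deviations correlated at -0.05 to 0.00 in SCC15 and -0.02 to 0.01 in SCC25. This cannot show whether same-numbered libraries were prepared together. With the replicate block, BECN1 (0.24, adjusted p = 0.102 by limma) and ATG7 (0.27, adjusted p = 0.0891) lost their calls in SCC15 and TFEB gained one in the difference between lines (0.56, adjusted p = 0.0389). Depth limits TFEB, GABARAP and MAP1LC3C, whose counts were low.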

Other observations

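Among the listed genes not described above, chosen after their values were seen, DDIT4, an inhibitor of mTORC1 known as REDD1, had log2 changes of 2.95 in SCC15 and 0.93 in SCC25, and SESN2, a stress-induced leucine sensor, of 1.52 and 0.62, and both rose in both lines. The mitophagy receptor BNIP3 rose by 1.74 and 0.14, the latter being -0.07 and not called with equal totals, and the adaptor OPTN by 0.97 and 0.43. MCOLN1, the lysosomal calcium channel, fell by 1.45 in SCC25, with -0.03 in SCC15, which did not pass, and -0.53 there with equal totals, which did.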
